A study of Mus musculus with 8 samples.

Results

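The core circadian clock of mouse cells was followed through 10 genes: Per1, Per2, Per3, Cry1, Cry2, Nr1d1, Nr1d2, Arntl, Clock and Npas2. They were picked by name among the 20664 named mouse genes with a probe on the array, and each had 1 probe. The cells were 3T3-L1 cells, a mouse fibroblast line that was kept in adipogenic medium for 1 week to turn it towards fat-like cells. They were then given supernatant of human HL-60 cells, diluted 2-fold. The records of all 8 samples give 10% FCS (fetal calf serum). HL-60 is a human leukemia line, here made macrophage-like with 30 nM of the phorbol ester PMA over 5 days. The groups were 3T3-L1 cells after 6 h and after 3 h with supernatant of HL-60 cells in which USP2, a deubiquitinating enzyme, had been knocked down (KD supernatant), and after 6 h and after 3 h with supernatant of HL-60 cells carrying a mock vector (control supernatant). Each of the 4 groups held 2 arrays, so all 8 arrays came from cells that had received a supernatant, and the mouse cells themselves were not modified. The question was what the supernatant of USP2 knockdown cells changed in the 3T3-L1 cells, and the 2 times add the change from 3 h to 6 h within each supernatant.

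The clock is a loop of transcription and repression. The proteins CLOCK and BMAL1, which is encoded by Arntl, pair up and bind E-boxes in DNA, where they switch on the Per, Cry and Nr1d genes. PER and CRY proteins then return to the nucleus and block CLOCK and BMAL1, while the nuclear receptors REV-ERB alpha and beta, made from Nr1d1 and Nr1d2, repress Arntl through response elements named RREs. NPAS2 can stand in for CLOCK. Fibroblast and fat cell lines run such a loop in culture, and in fat tissue it times genes of lipid metabolism.

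The DNA in front of some of these genes, though not of all, shows letters through which the loop can be read. RefSeq promoter sequences of build GRCm38.p6 matched 9 of the 10 genes with 13 start sites, and the 250 bases before each start were searched on both strands for the E-box CACGTG, the related E-prime box CACGTT, the D-box TTANGTAA, the cAMP response element TGACGTCA and the RRE cores TAGGTCA and TGGGTCA. None of these motifs shares letters with another at the matches found. The following 4 promoters are shown because Cry1 and Nr1d1 changed strongly with time, Per1 holds an E-box and changed little, and Arntl was the member called between the supernatants. Capitals mark a motif match, which appears as AACGTG where the E-prime box lies on the other strand.
Cry1, chr10:85185055-85185304, minus strand: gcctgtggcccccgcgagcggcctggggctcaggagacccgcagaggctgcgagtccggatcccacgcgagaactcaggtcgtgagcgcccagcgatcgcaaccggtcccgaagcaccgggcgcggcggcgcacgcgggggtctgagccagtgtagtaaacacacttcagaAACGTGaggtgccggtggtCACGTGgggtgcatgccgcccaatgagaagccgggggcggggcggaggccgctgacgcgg
Nr1d1, chr11:98775378-98775627, minus strand: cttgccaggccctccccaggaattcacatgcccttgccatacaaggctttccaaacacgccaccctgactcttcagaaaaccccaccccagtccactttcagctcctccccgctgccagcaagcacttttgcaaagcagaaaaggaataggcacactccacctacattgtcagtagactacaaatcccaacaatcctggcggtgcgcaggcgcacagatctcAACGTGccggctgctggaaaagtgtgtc
Per1, chr11:69098699-69098948, plus strand: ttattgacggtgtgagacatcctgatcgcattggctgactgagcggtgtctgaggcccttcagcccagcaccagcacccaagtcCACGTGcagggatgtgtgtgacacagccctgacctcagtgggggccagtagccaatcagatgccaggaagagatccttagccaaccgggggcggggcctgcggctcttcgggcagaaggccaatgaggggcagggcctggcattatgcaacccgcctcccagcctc
Arntl, chr7:113207261-113207510, plus strand: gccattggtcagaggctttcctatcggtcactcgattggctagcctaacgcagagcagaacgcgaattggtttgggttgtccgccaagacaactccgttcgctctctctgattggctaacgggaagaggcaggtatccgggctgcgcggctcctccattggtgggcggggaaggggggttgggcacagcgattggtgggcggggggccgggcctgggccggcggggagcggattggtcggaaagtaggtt
The E-box lay at bases -60 to -55 before the start of Cry1 and at -166 to -161 before the Per1 start shown, and 6.02% of 32851 RefSeq promoters of the same length hold one. The E-prime box lay at -79 to -74 in Cry1, -28 to -23 in Nr1d1 and -166 to -161 in Cry2, against 3.85% of all promoters. The promoter of Per3 held the D-box at -205 to -198 and at -158 to -151, against 2.06% of all promoters. The cAMP response element and the RRE cores, which 1.55% and 5.38% of all promoters hold, had no match in the windows of these genes. A match says that the letters are there, not that a factor binds. A missing match speaks only for these exact letters within the 250 bases, so other forms of an element were not searched.

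Signals below are log2 processed intensities relative to the 75th percentile of the same array, so 0 is the level of that percentile and a difference of 1 is a doubling of signal; values of different genes come from different probes and are not compared. Of the 10 genes, 8 were well above background on all 8 arrays, and Per3 was on 7 of 8. Npas2 was well above background on none, with signals between -7.54 and -6.72, and entered no test. This left 9 genes tested among 25795 genes and unnamed probes. Between 50.7% and 55.9% of the 59305 non-control spots of an array were well above background and 0 were saturated, and replicate arrays correlated at 0.988 to 0.998. Of 11 fat cell markers, 5 were detected above background on each of the 8 arrays (Pparg, Cebpa, Fabp4, Fabp5 and Lpl) and 5 on none (Adipoq, Cidec, Cd36, Lep and Cfd), while 7 of 7 markers of preadipocytes and fibroblasts were on all 8, so the labelled adipocyte identity was seen in part. Of 7 markers each, 4 of macrophages and leukocytes (Csf1r, Itgam, Lyz2 and Cd14) and 4 of endothelium and muscle (Pecam1, Kdr, Des and Acta1) were above background on all 8 arrays, while Ptprc, Adgre1, Cdh5, Tek and Myog were on none. The number of arrays limits the precision, and in such bulk RNA fewer cells of a type and less RNA per cell cannot be told apart. The 8 arrays lay on 1 slide with the 6 h arrays in row 2, the 3 h arrays in row 1, KD arrays in columns 3 and 4 and control arrays in columns 1 and 2, so neither time and slide row nor supernatant and slide column can be told apart.

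**Figure D1:**
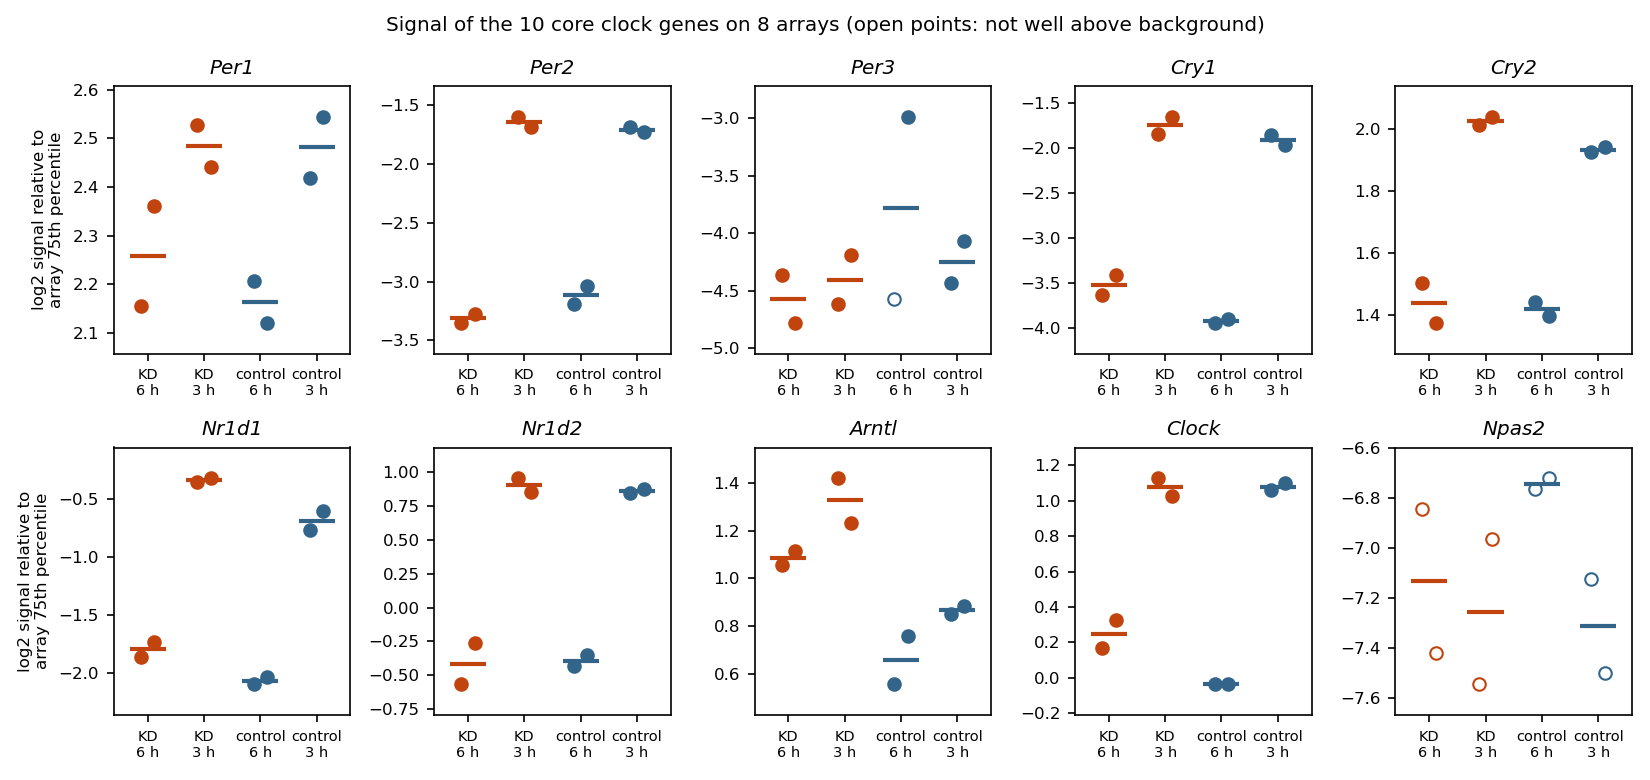
Log2 signal relative to the array's 75th percentile (vertical axis, own scale per gene) for each of the 10 clock genes in the 4 groups. Points are single arrays, filled where the probe was well above background, and lines are means of 2 arrays. Per2, Cry1, Cry2, Nr1d1, Nr1d2 and Clock sit lower at 6 h than at 3 h in both supernatants, while Arntl sits higher with KD supernatant at both times.

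Most of the clock genes were lower at 6 h than at 3 h, with either supernatant. With KD supernatant 6 of the 9 tested genes fell and 0 rose (limma, adjusted p under 0.05), where 40.1% of all genes and probes were called, 22.6% lower and 17.5% higher. With control supernatant 7 of 9 fell and 0 rose, where 39.7% were called, 23.4% lower and 16.3% higher. The median change of the 9 genes was -0.83 with KD supernatant, against -0.11 over all genes and probes, and -1.12 with control supernatant, against -0.07. In 8 of 9 genes both 6 h arrays lay below both 3 h arrays in each supernatant, which 32.9% of all genes and probes did, and Per3 was the exception.

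Among the repressors of the loop, Cry1, which encodes a cryptochrome that binds and blocks CLOCK and BMAL1, fell strongly with both supernatants. Cry1 had -3.64 and -3.41 at 6 h and -1.84 and -1.65 at 3 h with KD supernatant, and -3.94 and -3.90 at 6 h and -1.85 and -1.97 at 3 h with control supernatant. The 4 arrays at 6 h were far below the 4 arrays at 3 h. The fall was -1.78 ± 0.11 (SE, 3.44-fold lower; adjusted p = 0.000222) with KD supernatant and -2.01 ± 0.11 (4.03-fold lower; adjusted p = 0.00016) with control supernatant. Among all 25795 features these changes ranked 629 and 432 by size.

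Cry2, the other cryptochrome gene, moved the same way by less. It had 1.50 and 1.37 at 6 h and 2.01 and 2.04 at 3 h with KD supernatant, and 1.44 and 1.40 at 6 h and 1.93 and 1.94 at 3 h with control supernatant. The groups of the 2 times did not overlap. Its change was -0.59 ± 0.07 (adjusted p = 0.00148) with KD supernatant and -0.52 ± 0.07 (adjusted p = 0.0023) with control supernatant, or 1.50- and 1.43-fold lower.

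Of the Period genes, whose proteins partner the cryptochromes, Per2 fell strongly. It had -3.35 and -3.27 at 6 h and -1.60 and -1.68 at 3 h with KD supernatant, and -3.19 and -3.04 at 6 h and -1.69 and -1.73 at 3 h with control supernatant. The fall was -1.67 ± 0.08 (3.18-fold lower; adjusted p = 0.000138) with KD supernatant and -1.41 ± 0.08 (2.65-fold lower; adjusted p = 0.00017) with control supernatant. With KD supernatant Per2 was lower at 6 h than with control supernatant and slightly higher at 3 h, and neither pair overlapped, although neither difference passed the test. At 3 h the nearest arrays were almost equal, at -1.685 with KD and -1.686 with control supernatant.

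Per1, the Period gene best known for fast induction by extracellular signals, changed little. It had 2.15 and 2.36 at 6 h and 2.53 and 2.44 at 3 h with KD supernatant, and 2.21 and 2.12 at 6 h and 2.42 and 2.54 at 3 h with control supernatant. The 6 h arrays were all below the 3 h arrays. The change was -0.23 ± 0.10 (adjusted p = 0.115; 95% interval -0.47 to 0.01) with KD supernatant and -0.32 ± 0.10 (adjusted p = 0.0457) with control supernatant, where the call was lost in several alternative settings.

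Per3, a Period gene not required for the loop in mice, was near background. It had -4.36 and -4.78 at 6 h and -4.62 and -4.19 at 3 h with KD supernatant, and -4.58 and -2.99 at 6 h and -4.44 and -4.07 at 3 h with control supernatant. The array at -2.99, control 6 h replicate 2, stood apart from the other 7, and replicate 1 of that group was the 1 array where Per3 was not well above background. The changes were -0.17 ± 0.52 (adjusted p = 0.818) and 0.47 ± 0.52 (adjusted p = 0.523) and did not pass the test. With control supernatant the change was -0.32 (adjusted p = 0.416) without that replicate 2 and 1.27 (adjusted p = 0.0215) without replicate 1, so 1 array set its size and direction.

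The REV-ERB genes fell together. Nr1d1 had -1.86 and -1.73 at 6 h and -0.36 and -0.32 at 3 h with KD supernatant, and -2.10 and -2.04 at 6 h and -0.77 and -0.61 at 3 h with control supernatant. Its change was -1.46 ± 0.08 (2.75-fold lower; adjusted p = 0.0002) with KD supernatant and -1.38 ± 0.08 (2.61-fold lower; adjusted p = 0.000207) with control supernatant. The 4 groups of Nr1d1 were fully separated, in the descending order KD 3 h, control 3 h, KD 6 h and control 6 h. The share of all genes and probes with such a full separation was not counted.

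Nr1d2, its paralogue, had -0.57 and -0.27 at 6 h and 0.96 and 0.85 at 3 h with KD supernatant, and -0.44 and -0.35 at 6 h and 0.85 and 0.88 at 3 h with control supernatant. Its change was -1.32 ± 0.11 (2.50-fold lower; adjusted p = 0.000549) with KD supernatant and -1.26 ± 0.11 (2.39-fold lower; adjusted p = 0.000591) with control supernatant. Within each time the 2 supernatants overlapped for Nr1d2.

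Of the activators, Clock fell and Arntl did not pass the test. Clock had 0.17 and 0.33 at 6 h and 1.13 and 1.03 at 3 h with KD supernatant, and -0.04 and -0.04 at 6 h and 1.06 and 1.10 at 3 h with control supernatant. Its change was -0.83 ± 0.08 (1.78-fold lower; adjusted p = 0.000762) with KD supernatant and -1.12 ± 0.08 (2.17-fold lower; adjusted p = 0.000302) with control supernatant. At 3 h the supernatants overlapped, and at 6 h both KD arrays lay above both control arrays.

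Arntl had 1.06 and 1.11 at 6 h and 1.42 and 1.23 at 3 h with KD supernatant, and 0.56 and 0.76 at 6 h and 0.85 and 0.88 at 3 h with control supernatant. The 6 h arrays lay below the 3 h arrays in each supernatant, but the changes of -0.24 ± 0.10 (adjusted p = 0.106) and -0.21 ± 0.10 (adjusted p = 0.155) did not pass the test. The order of the 4 groups was KD 3 h, KD 6 h, control 3 h and control 6 h from high to low, and no neighbours in that order overlapped. Such a separation was not counted over all genes and probes. Clock, Cry1, Cry2, Per2, Nr1d1, Nr1d2 and Per1 had the 4 arrays at 6 h below the 4 arrays at 3 h, which 28.3% of all genes and probes did, and Arntl and Per3 did not.

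**Figure D2:**
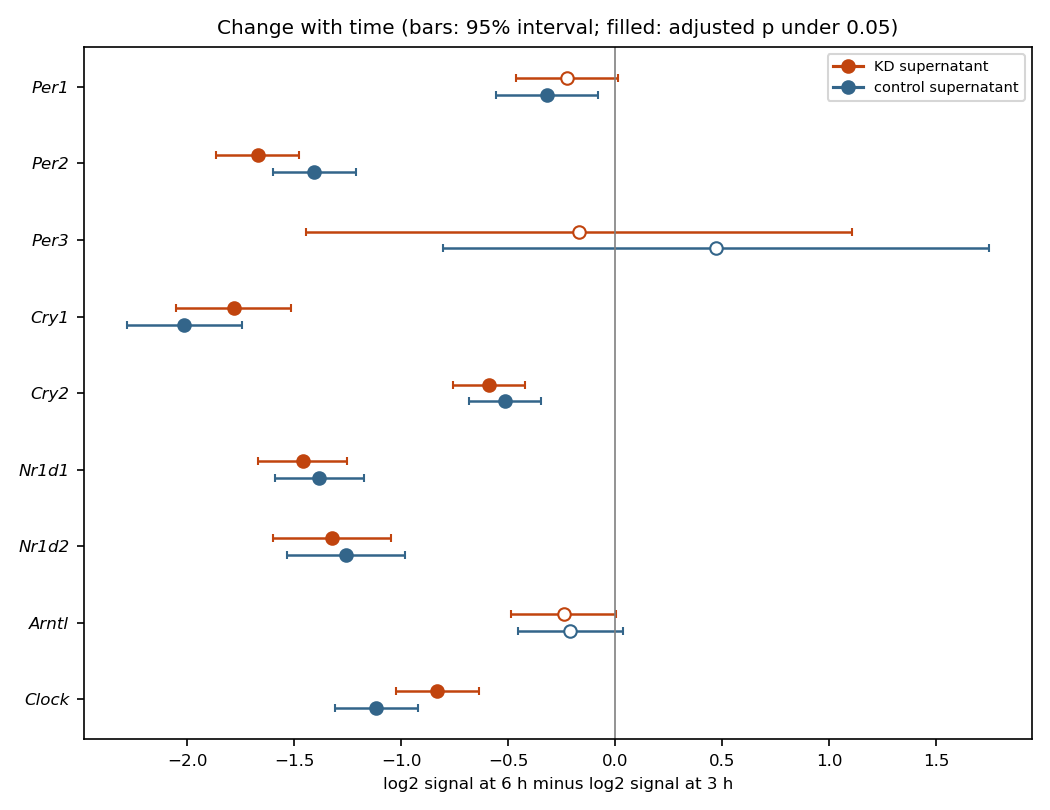
Log2 signal at 6 h minus 3 h (horizontal axis) for the 9 tested clock genes with KD supernatant and with control supernatant. Points are limma estimates, bars their 95% intervals, and filled points passed an adjusted p of 0.05. Cry1, Per2, Nr1d1, Nr1d2, Clock and Cry2 lie left of 0 in both supernatants, with Cry1 at -1.78 with KD and -2.01 with control supernatant.

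The sizes of these falls depend on how low signals are treated. With the normexp background correction, which adds an offset of 50 to every signal, the change of Cry1 was -1.07 with KD and -1.07 with control supernatant and that of Per2 was -1.04 with KD and -0.79 with control supernatant, all of them still called. In that setting Nr1d1 and Nr1d2 both changed by -1.19 with KD supernatant and Nr1d2 by -1.18 with control supernatant, more than Cry1. Centring the arrays on their medians moved the median change of all genes to -0.17 with KD supernatant and to -0.25 with control supernatant. Relative to that median, over the scalings, the background correction and the deposited value table, Cry1 changed by -1.78 to -0.97 with KD and by -2.16 to -1.03 with control supernatant, Nr1d2 by -1.22 to -1.09 and -1.19 to -1.15, and Clock by -0.72 to -0.66 and -1.05 to -0.96.

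Between the supernatants 1 clock gene passed the test, and it did so when both times were averaged. At 6 h 0 of 9 genes passed the test for KD minus control supernatant, where 2.23% of all genes and probes did, and 5 of 9 had an unadjusted limma p under 0.05, where 19.0% did. At 3 h 0 of 9 passed, where 0.248% did, and 2 of 9 had an unadjusted p under 0.05, where 10.6% did. Averaged over both times 1 of 9 passed, where 3.05% did and 2.11% were higher, and 4 of 9 had an unadjusted p under 0.05, where 19.6% did. The gene was Arntl.

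Arntl, which encodes BMAL1, rose with KD supernatant by 0.44 ± 0.07 averaged over both times (1.36-fold; adjusted p = 0.0361; 95% interval 0.27 to 0.62). Its KD arrays lay above its control arrays at each time, which 9.53% of all genes and probes did. With the times pooled, 4 of 4 KD arrays lay above 4 of 4 control arrays, a pattern not counted over all genes and probes. The difference was 0.43 ± 0.10 at 6 h (adjusted p = 0.107) and 0.46 ± 0.10 at 3 h (adjusted p = 0.182). Relative to the median of all genes it was 0.43 to 0.46 over the scalings, the background correction and the deposited table. The call was lost without scaling (adjusted p = 0.364), without a filter on dim probes (adjusted p = 0.181) and with the replicate block (adjusted p = 0.0757). Without any one of the 3 h arrays or of the KD 6 h arrays the average was 0.40 to 0.49 with an adjusted p of 0.0867 to 0.151, and the call was kept without either control 6 h array.

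Nr1d1 had a difference of 0.31 ± 0.06 on average (adjusted p = 0.0607), 0.27 ± 0.08 at 6 h (adjusted p = 0.178) and 0.35 ± 0.08 at 3 h (adjusted p = 0.223). Cry1 had a difference of 0.28 ± 0.08 on average (adjusted p = 0.132), 0.39 ± 0.11 at 6 h (adjusted p = 0.147) and 0.16 ± 0.11 at 3 h (adjusted p = 0.695). Cry1, Arntl and Nr1d1 were the 3 of 9 genes whose KD arrays lay above the control arrays at both times, which 9.53% of all genes and probes did. None of the differences of Nr1d1 and Cry1 passed the test. With the normexp background correction the difference of Cry1 was 0.10 at 6 h and 0.10 on average, and that of Nr1d1 at 6 h was 0.14.

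For Clock the difference was 0.28 ± 0.08 at 6 h (adjusted p = 0.149) and -0.0017 ± 0.08 at 3 h (adjusted p = 0.999). For Per2 it was -0.20 ± 0.08 at 6 h (adjusted p = 0.255) and 0.07 ± 0.08 at 3 h (adjusted p = 0.872). Per1, Cry2 and Nr1d2 had average differences between 0.01 and 0.06, and their 95% intervals of -0.12 to 0.22 for Per1, -0.06 to 0.18 for Cry2 and -0.19 to 0.20 for Nr1d2 hold both directions. Per3 had -0.79 ± 0.52 at 6 h (adjusted p = 0.444), which was 0.004 without control 6 h replicate 2.

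At 6 h the KD arrays lay above the control arrays for 4 of 9 genes (Cry1, Arntl, Clock and Nr1d1), which 24.8% of all genes and probes did, and below them for 1 of 9 (Per2), which 23.0% did. At 3 h they lay above for 5 of 9 (Per2, Cry1, Cry2, Arntl and Nr1d1), which 20.2% did, and for Per2 the nearest arrays were almost equal.

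**Figure D3:**
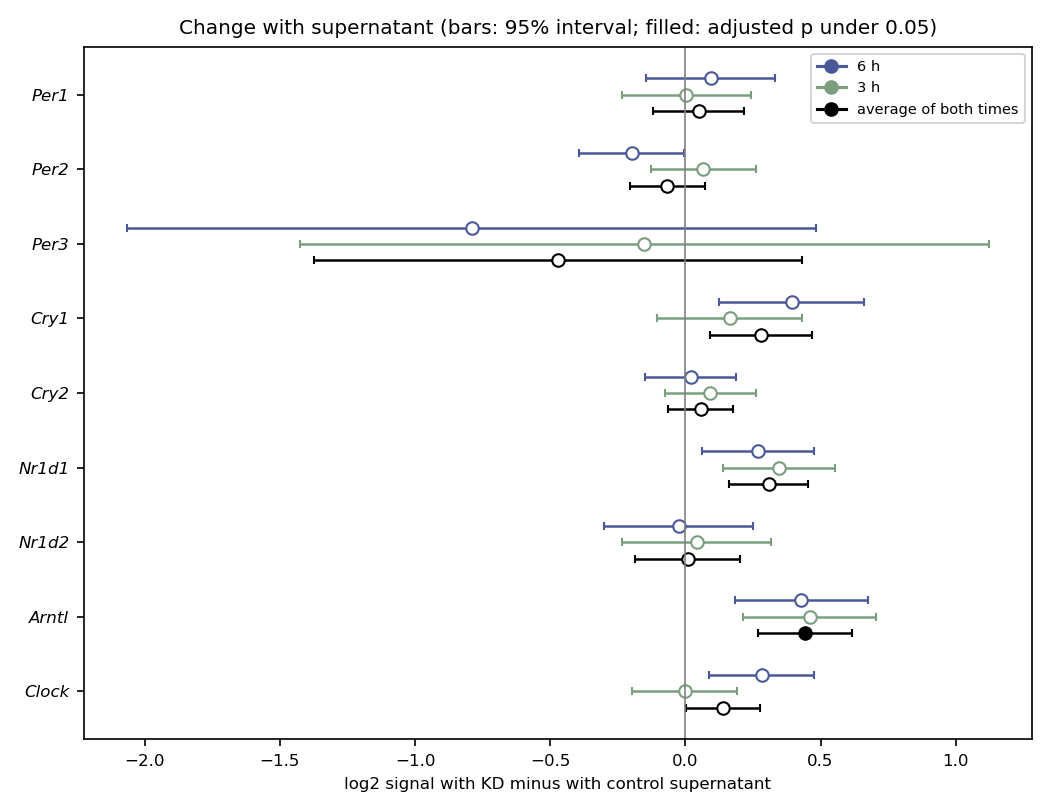
Log2 signal with KD minus control supernatant (horizontal axis) for the 9 tested clock genes at 6 h, at 3 h and averaged over both times. Points are limma estimates with 95% intervals, and the filled point, the average of Arntl at 0.44, passed an adjusted p of 0.05. Per3 has the widest intervals.

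Whether the supernatant effect differed between the times was tested directly as the 6 h effect minus the 3 h effect, also the time change with KD minus that with control supernatant. Of the 9 genes 0 passed, as did 0.0% of all 25795 genes and probes by limma, of which 2226 (8.63%) had an unadjusted p under 0.05. Without control 6 h replicate 1 or replicate 2 the test called 257 or 295 of all features, and 0 clock genes. Clock had 0.28 ± 0.11 (unadjusted p = 0.0442, adjusted p = 0.57), so its smaller fall with KD supernatant was not separated from its fall with control supernatant. Per2 had -0.26 ± 0.11 (adjusted p = 0.589), Cry1 0.23 ± 0.15 (adjusted p = 0.702) and Arntl -0.03 ± 0.14 (adjusted p = 0.953; 95% interval -0.38 to 0.32). The 6 h and 3 h effects of a supernatant share no arrays, whereas the time change and the supernatant change at 6 h share the KD 6 h and control 6 h arrays.

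Genes around the loop were read from 5 lists of clock genes outside the core. Of the 7 clock output factors, transcription factors that the loop drives or that feed back on it, 4 fell and 0 rose from 3 h to 6 h with KD supernatant, and likewise 4 and 0 with control supernatant. Of all genes and probes 22.6% fell and 17.5% rose with KD and 23.4% fell and 16.3% rose with control supernatant. Their median change was -0.30 with KD and -0.41 with control supernatant, beside -0.11 and -0.07 over all genes and probes. Ciart, which encodes a repressor of CLOCK and BMAL1 also named CHRONO, fell by 1.08 with KD supernatant (adjusted p = 0.000997) and by 1.06 with control supernatant (adjusted p = 0.000985). Bhlhe40, encoding the E-box repressor DEC1, changed by -0.92 (adjusted p = 0.000632) and -0.99 (adjusted p = 0.000463).

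Dbp, which encodes a D-box activator and is itself a target of CLOCK and BMAL1, was the output gene called lower with KD supernatant. It had 1.64 and 1.48 with KD against 2.29 and 2.35 with control supernatant at 6 h, and 2.38 and 2.35 against 2.70 and 2.76 at 3 h, with no overlap at either time. At 6 h 23.0% of all genes and probes had KD arrays below control arrays in this way, and the share at 3 h was not counted. The difference was -0.76 ± 0.08 at 6 h (adjusted p = 0.0141), -0.36 ± 0.08 at 3 h (adjusted p = 0.17) and -0.56 ± 0.05 on average (adjusted p = 0.00926). It also fell with time, by 0.80 with KD (adjusted p = 0.000782) and by 0.41 with control supernatant (adjusted p = 0.00826). Tef and Hlf of the same list also had KD arrays below control arrays at both times, but neither difference was called. At 6 h Tef had 3.77 and 3.78 with KD against 4.11 and 3.89 with control supernatant. Hlf had -3.06 and -2.40 against -1.74 and -1.85. Nfil3, Bhlhe40 and Ciart had KD arrays above control arrays at both times, as did 9.53% of all genes and probes.

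Nfil3, encoding a D-box repressor that opposes DBP, was higher with KD supernatant, with 3.63 and 3.65 against 3.50 and 3.26 at 6 h and 3.79 and 3.72 against 3.28 and 3.24 at 3 h. Its average difference was 0.38 ± 0.07 (adjusted p = 0.0471), and its changes with time, -0.11 and 0.11, did not pass. The Dbp call on average was lost without scaling (adjusted p = 0.146), without a filter on dim probes (0.0801) and without any one of the 3 h arrays (0.0529 to 0.0603), and that of Nfil3 held in 9 of 19 alternatives. The Dbp call at 6 h held in 15 of 20 alternatives and was lost without scaling (0.230), without the filter (0.119), with the compared groups alone (0.208) and without either KD 3 h array (0.0581). Its fall with control supernatant held in 16 of 20, and was -0.25 with quantile normalization (0.0640).

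Products of the ROR receptor genes activate Arntl at the elements that REV-ERB proteins occupy, and Rorb, one of these genes, was not tested, since it was not well above background on both arrays of any group. Rora fell by 0.33 with KD supernatant (adjusted p = 0.00702) and by 0.49 with control supernatant (adjusted p = 0.00172), calls that held in 17 and 19 of 20 alternatives. Without scaling the KD value was -0.17 (adjusted p = 0.547).

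Of 15 genes for kinases, ubiquitin ligases and deubiquitinating enzymes that act on clock proteins, 10 fell and 1 rose with KD supernatant and 9 fell and 1 rose with control supernatant, with a median change of -0.39 and -0.49. Over all genes and probes the lower calls were 22.6% with KD and 23.4% with control supernatant, the higher calls 17.5% and 16.3%, and the median changes -0.11 and -0.07. Fbxw11, a subunit of a ligase for PER proteins, had -0.78 (adjusted p = 0.000504) with KD and -0.91 (adjusted p = 0.000309) with control supernatant. Siah2, a ligase for REV-ERB alpha, had -0.77 (adjusted p = 0.00065) and -0.96 (adjusted p = 0.00032), and Csnk1e, the casein kinase that phosphorylates PER proteins, had -0.59 (adjusted p = 0.000993) and -0.72 (adjusted p = 0.0005).

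The gene of this list that rose was Fbxl21, whose product is a ligase subunit for cryptochromes. Fbxl21 had -1.76 and -1.81 at 6 h and -3.13 and -3.01 at 3 h with KD supernatant, and -1.89 and -1.90 at 6 h and -2.96 and -2.92 at 3 h with control supernatant. It rose by 1.28 with KD (adjusted p = 0.00017) and by 1.04 with control supernatant (adjusted p = 0.000254), while Cry1 and Cry2 fell. Averaging the probes of a gene gave Fbxl21 a rise of 0.61 with KD and 0.43 with control supernatant, both called. Mouse Usp2, chosen because its human counterpart was the knocked down gene, differed by -0.013 ± 0.10 at 6 h (adjusted p = 0.955) and 0.13 ± 0.10 at 3 h (adjusted p = 0.77) between KD and control supernatant.

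Of 11 transcriptional cofactors of the clock, 4 fell and 2 rose with each supernatant, where 22.6% of all genes and probes fell and 17.5% rose with KD and 23.4% fell and 16.3% rose with control supernatant, so the share that rose was near that of all genes. Wdr5, a subunit of histone methyltransferase complexes that was found with PER proteins, had -1.12 (adjusted p = 0.000274) with KD and -1.39 (adjusted p = 0.000158) with control supernatant. Ncor1, the corepressor that REV-ERB proteins recruit, had -0.46 with each (adjusted p = 0.00284 with KD and 0.00276 with control supernatant), and Ep300, a histone acetyltransferase, had -0.59 and -0.57. Averaging the probes of a gene gave Ncor1 -0.29 with control supernatant. Timeless, which in mammals acts at replication forks and was linked to the clock by its fly relative, rose by 1.08 (adjusted p = 0.000429) and by 0.98 (adjusted p = 0.000526).

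A further list held 11 genes, for factors that pass outside signals to the Per promoters and for targets of such signals. Of these 11, 6 fell and 2 rose with KD supernatant and 7 fell and 1 rose with control supernatant. The same shares of all genes and probes apply, 22.6% and 23.4% lower and 17.5% and 16.3% higher, and with KD supernatant the share that rose was near that of all genes. Srf, the serum response factor, had -1.53 (adjusted p = 0.000112) with KD and -1.61 (adjusted p = 0.000102) with control supernatant, and Crtc3, a coactivator of CREB, had -0.61 and -0.58. Tsc22d3, a glucocorticoid target also named Gilz, rose by 0.40 (adjusted p = 0.00564) and by 0.51 (adjusted p = 0.0021).

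Fos, the immediate early AP-1 gene, was the member of this list that differed between the supernatants, with -2.19 and -2.11 with KD against -3.10 and -2.96 with control supernatant at 6 h and -1.83 and -1.73 against -2.72 and -2.72 at 3 h. Its difference was 0.88 ± 0.08 at 6 h (adjusted p = 0.0108) and 0.94 ± 0.08 at 3 h (adjusted p = 0.0292), and 0.91 ± 0.05 on average (adjusted p = 0.00346). The average was called in 19 of 19 alternatives, the 6 h difference in 16 of 20 and the 3 h difference in 9 of 20. The 3 h call was lost with the replicate block (adjusted p = 0.0707), median scaling (0.0545), no scaling (0.421), no filter on dim probes (0.204) and the compared groups alone (0.0971), and without any one of the 3 h arrays or of the KD 6 h arrays (0.109 to 0.269). At 6 h it was lost without scaling (0.132), without the filter (0.0916), with the compared groups alone (0.192) and without KD 6 h replicate 1 (0.0582). With the normexp background correction the differences were 0.44 at 6 h, 0.58 at 3 h and 0.51 on average. Of the 46 genes tested in the 5 lists, Dbp and Fos were called at 6 h, Fos at 3 h, and Dbp, Nfil3 and Fos on average, where 2.23%, 0.248% and 3.05% of all genes and probes were called.

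The number of fallen genes in these lists varied over the alternative settings, and 1 to 10 of the 15 kinase and ligase genes fell with KD and 3 to 11 with control supernatant. Of the 11 genes of the signal list, 1 to 7 fell with KD and 2 to 8 with control supernatant. Without scaling the falls of Ncor1, Ep300, Crtc3 and Rora with either supernatant and those of Siah2 and Csnk1e with KD supernatant were not called. Over the same alternatives 5 to 6 of the 9 core genes fell with KD and 5 to 7 with control supernatant.

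**Figure D4:**
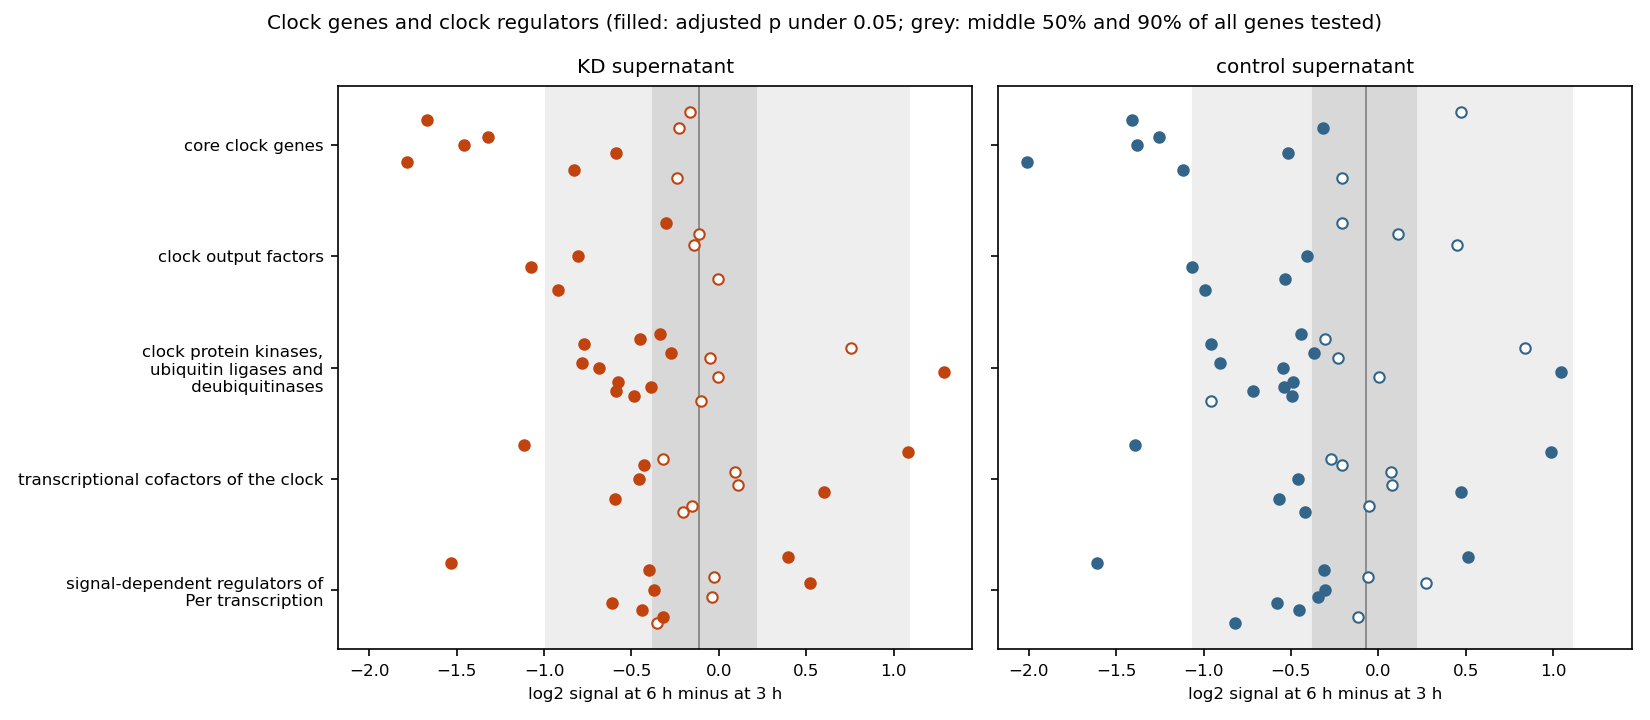
Log2 signal at 6 h minus 3 h (horizontal axis) with KD supernatant (left) and control supernatant (right) for the tested core clock genes and 4 lists of clock-related genes. Each point is a gene, filled where the adjusted p was under 0.05, and the dark and light grey bands span the middle 50% and 90% of all 25795 genes and probes. Cry1, Per2, Nr1d1 and Nr1d2 lie left of the light band in both panels, while most genes of the other lists lie inside it.

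The genes whose profile over the 8 arrays was most like that of a clock gene were ranked by the root mean square difference of the centred log2 values, among 13751 named genes. For Per2 these were Osgin1 (0.05) and Ttll3 (0.08), with Nr1d2 at rank 30 (0.15) and Nr1d1 at rank 148 (0.21). For Nr1d1 they were Riok2 (0.05), Qtrt2 (0.07) and Mafk (0.07), with Nr1d2 at rank 130 (0.18). For Arntl they were Dram1 (0.06), Ell2 (0.08) and Sdc4 (0.09), and the closest core gene was Per1 at rank 1317 (0.22). The centred profile of Arntl itself had a root mean square of 0.26, so Per1 was hardly closer to it than a flat profile. For Per1 they were Supt16 (0.03), Gpbp1l1 (0.03) and Lsm2 (0.04) against a root mean square of 0.16 for the centred profile of Per1 itself.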

How the data were processed

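RNA of 3T3-L1 cells (0.1 ug per sample, Cy3 dye) was measured on 8 one-colour arrays, 2 in each of 4 groups read from the sample labels. They are labelled biological replicates with no word on shared supernatant batches or wells, so the p-values speak for the spread between these samples, which may be technical. USP2 was knocked down in the human cells, so the mouse arrays do not check the knockdown. The deposited scanner output gives each spot a processed signal, which per the file headers is a linear intensity with background subtracted and no scaling across arrays. Agilent Feature Extraction 10.7.3.1 made it, per the submitters' processing notes. Deposited median spot and median background intensities fed a normexp alternative with an offset of 50. The authors' deposited value table is in log2 and was found to equal the log2 processed signal shifted by 1 constant per array (correlation 1.00), with no centring per gene. Its medians were -4.11 and -4.22 for KD 6 h, -4.22 and -4.23 for KD 3 h, -3.95 and -4.05 for control 6 h and -4.14 and -4.17 for control 3 h.

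Here, control spots and 163 to 319 outlier spots per array were dropped, log2 signals were set relative to the 75th percentile of their array, and repeated spots of a probe were averaged. RefSeq (GRCm38.p6, for names) gave a gene to 27229 of 55681 probes by transcript and to 20 by symbol or synonym, and the other 28432 were kept as unnamed probes. Probes not well above background on both arrays in any group were filtered out, leaving 30106, and each gene was represented by its brightest probe on average, which left 25795 features, 13782 of them named genes and 9 of these clock genes. All 8 arrays entered 1 limma 3.58.1 model (lmFit, eBayes; R 4.3.3) of 4 group means, whose degrees of freedom were 4 residual and 1.74 prior. Benjamini-Hochberg adjustment ran over all features, calls needed an adjusted p under 0.05, and errors after ± are the model's standard errors. The fit was also run on simulated data with known changes and independent errors. That setting is simpler than these arrays, and no result here rests on it. Same-numbered arrays did not deviate together (correlations -0.05 to 0.09), so replicate numbers were not treated as pairs.

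The genes and lists were chosen with earlier results of these data known. All core genes are named, and of each other list up to 4 called genes with the smallest p. Usp2 and Arntl2 were added after the values were seen, and 2 genes that the rules would name are not reported here. Alternatives were other scalings, background correction, filters, gene summaries, the deposited table, array weights, a replicate block, the compared groups alone, masked bright patches and each array left out. Promoters came from RefSeq, and tables were made with Python 3.11.15.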

Additional observations from a re-analysis of the deposited data

How the results depend on the processing

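The falls of Cry1, Per2, Nr1d1, Nr1d2 and Clock with time were called in 21 of 21 alternatives with each supernatant, and no called change of a core gene turned its direction. Over all core genes, comparisons and alternatives, 1083 values kept their side of the threshold, 23 lost and 4 gained a call. The average supernatant comparison, with 1 clock gene called, gave 2 with median scaling and with a filter of all 8 arrays above background, where Nr1d1 joined Arntl, and 0 without a filter on dim probes, without scaling and with the replicate block. Leaving out single arrays gave 0 to 1 called genes on average, 0 to 1 at 6 h, 0 at 3 h and 0 for the difference of effects, and 6 with time in KD and 6 to 7 in control supernatant. Arntl at 6 h was called without control 6 h replicate 2 (adjusted p = 0.0481). The replicate block gave 0, 213 and 482 called features in the whole table at 3 h, at 6 h and on average, an adjusted p of 0.0757 for Arntl on average and of 0.0669 for Per1 with control supernatant, and left 6 fallen core genes with each supernatant. Per1 with control supernatant was also lost without scaling (0.404), with quantile normalization (0.186), without a filter (0.152), with array weights (0.0975), with the compared groups alone (0.0822) and without most single arrays. Cry2 with time was lost without scaling (0.110 with KD and 0.0855 with control supernatant). The causes were not tested.

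Counts of called features over the whole table ranged over the alternatives from 0 to 1956 at 6 h (574 in the reported setting), 0 to 301 at 3 h (64), 74 to 1995 on average (788), 5501 to 12305 with time in KD (10351), 5736 to 12322 with time in control supernatant (10252) and 0 to 295 for the difference of effects (0). The highest counts at 6 h, on average and for the difference of effects came without control 6 h replicate 2. Higher and lower features numbered 1237 and 114 with median scaling and 47 and 40 without scaling at 6 h, beside 393 and 181 as reported, and 1349 and 126 with median scaling on average, beside 543 and 245. With time they numbered 3684 and 1817 without scaling in KD supernatant, beside 4524 and 5827, and 2807 and 9192 with median scaling in control supernatant, beside 4211 and 6041. For the other named genes, read off after the data were seen, 750 calls were kept and 67 lost. The compared groups alone could not be fitted for the average and the difference of effects, which use all groups. Dim probes such as Per3 carry little signal over background, and Npas2 none that was well above it.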

Other observations

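Arntl2, the paralogue of Arntl whose product can also pair with CLOCK, was not among the 10 genes and was looked at after its values were seen. It had -1.91 and -1.99 at 6 h and -2.76 and -2.86 at 3 h with KD supernatant, and -2.06 and -2.14 at 6 h and -2.91 and -2.81 at 3 h with control supernatant. It rose with time by 0.86 ± 0.08 with KD (adjusted p = 0.000621) and by 0.76 ± 0.08 with control supernatant (adjusted p = 0.00085), in 20 of 20 alternatives each, the smallest being 0.49 and 0.46 with the normexp background correction. Arntl had -0.24 and -0.21 in the same comparisons. Between the supernatants Arntl2 differed by 0.15 ± 0.08 at 6 h (adjusted p = 0.337) and by 0.05 ± 0.08 at 3 h (adjusted p = 0.913).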
